A study of Mus musculus with 20 samples.

Results

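The genes described here were grouped as macrophage complement and identity genes: C1qa, C1qb, C1qc, Timd4, Mrc1, Csf1r, Ms4a6c and Ly86. Some of these 8 are also expressed by other cells, as given below. The 8 genes were taken by symbol from RNA tables of sorted mouse bone marrow stroma. Each library lists 24347 genes, and each of the 8 symbols was found in all 12 libraries. They were chosen by their measured FPKM differences between genotypes and between sorts in these libraries, so their own levels are given below as a description. Calls on them are only counted, and nothing is read from those counts. All 8 passed the filter on low values (at least 1 FPKM in at least 3 of the 12 libraries), Timd4 and Mrc1 through PaS libraries alone. FPKM counts fragments, divided by the length of the transcript in kilobases and by the number of mapped fragments, so it is a level per length.

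The libraries came from 4 groups of 3. CAR ko and CAR wt were CXCL12-abundant reticular cells, sorted as CD45-CD31-Lin-PDGFRα+Sca1-. PaS ko and PaS wt were PDGFRα+Sca1+ mesenchymal progenitors, sorted with the same gates except that they were Sca1+. The ko genotype was Ebf1fl/fl;Prx1+/cre and the wt genotype was Ebf1+/+;Prx1+/cre, so both carried Prx1-cre, in which the Prx1 regulatory sequence drives Cre in limb mesenchyme. All mice were C57BL/6, and cells came from crushed, collagenase-digested femora and tibiae. Ages, sexes and any pooling of animals were not given in the sources used here.

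C1q is the recognition molecule of the classical complement pathway, and each of its subunits holds the chains A, B and C, encoded by C1qa, C1qb and C1qc. Unlike most complement proteins, which come largely from the liver, C1q is made mainly by macrophages and dendritic cells. In the marrow, macrophages of erythroblastic islands surround maturing red cells, clear expelled nuclei and return iron, and they carry receptors for dying cells such as TIM-4, the product of Timd4. The transcription factor EBF1, targeted in these mice, acts in B cells and in mesenchymal stroma.

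The members differ in where they sit in the genome and in what lies at their start sites. C1qa, C1qc and C1qb are neighbours on chromosome 4 of GRCm38.p6, within 18.7 kb from the start of C1qb to the end of C1qa. The other 5 genes lie on 5 other chromosomes: Timd4 on chromosome 11, Mrc1 on 2, Csf1r on 18, Ms4a6c on 19 and Ly86 on 13. RefSeq promoter windows of 300 bases (250 before the start site and 50 after it) were searched for 6 members on both strands. The motifs were GAGGAA, the core bound by PU.1, CCCNNGGG, the core bound by EBF proteins, and TGCTGA, part of the element bound by MAF proteins. The 4 windows shown belong to the genes that were higher in PaS ko than in PaS wt libraries (values below), and capitals mark the motif matches, on either strand. They lie at chr4:136886151-136886450 (minus strand) for C1qb, chr4:136892865-136893164 (minus strand) for C1qc, chr11:46810549-46810848 (plus strand) for Timd4 and chr2:14229164-14229463 (plus strand) for Mrc1, and each reads 5′ to 3′ along its gene.
C1qb: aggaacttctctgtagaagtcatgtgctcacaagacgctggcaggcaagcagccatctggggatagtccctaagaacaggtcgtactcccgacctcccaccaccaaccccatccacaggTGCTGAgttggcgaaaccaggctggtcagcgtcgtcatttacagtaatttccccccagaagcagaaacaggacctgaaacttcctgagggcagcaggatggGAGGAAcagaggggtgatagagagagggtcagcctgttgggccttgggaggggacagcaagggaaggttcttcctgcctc
C1qc: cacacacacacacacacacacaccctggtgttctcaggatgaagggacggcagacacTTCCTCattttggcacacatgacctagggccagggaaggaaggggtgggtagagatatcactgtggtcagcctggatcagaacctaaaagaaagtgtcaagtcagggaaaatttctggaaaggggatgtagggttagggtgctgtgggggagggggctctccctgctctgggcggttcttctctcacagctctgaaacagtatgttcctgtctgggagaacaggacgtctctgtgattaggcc
Timd4: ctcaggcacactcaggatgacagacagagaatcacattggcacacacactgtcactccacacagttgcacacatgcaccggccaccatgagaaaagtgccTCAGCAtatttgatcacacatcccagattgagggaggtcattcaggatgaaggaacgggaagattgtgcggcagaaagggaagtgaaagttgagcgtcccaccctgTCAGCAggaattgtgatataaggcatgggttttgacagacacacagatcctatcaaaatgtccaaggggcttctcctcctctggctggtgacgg
Mrc1: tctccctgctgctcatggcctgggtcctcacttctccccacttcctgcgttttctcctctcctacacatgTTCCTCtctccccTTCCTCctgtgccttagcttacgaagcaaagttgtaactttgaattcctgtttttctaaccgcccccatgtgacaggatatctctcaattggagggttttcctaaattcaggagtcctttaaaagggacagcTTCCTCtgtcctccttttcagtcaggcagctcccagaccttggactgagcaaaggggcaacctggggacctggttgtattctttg
GAGGAA was found once in the window of C1qb, at base -30 from the start site, once in that of C1qc, at -193 on the opposite strand, and at -180, -167 and -35 on the opposite strand in that of Mrc1. TGCTGA was found at -131 in C1qb and at -150 and -44 on the opposite strand in Timd4. No matches overlapped. The windows of Ms4a6c and Ly86 held neither, and CCCNNGGG was in 0 of the 6. Among 32851 RefSeq promoter windows of the same length, 28.3% held GAGGAA, 13.7% held CCCNNGGG and 19.5% held TGCTGA. These matches describe letters only, and binding was not measured in the files used here.

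The libraries were alike in total level (491801 to 526074 FPKM) and in the number of genes at 1 FPKM or more (11863 to 12295). The number of reads is not given, so depth is unknown and no counting interval can be had. In PaS wt replicate 1 fewer genes were at 0 (24.6%) than in any other library (33.3% to 37.0%), so members' PaS differences are also given without it. Mean levels of Ebf1, which the ko allele targets, were higher in ko than in wt libraries, with overlap in PaS cells: CAR ko libraries had 56.0, 56.7 and 59.8 FPKM, against 48.9, 48.5 and 46.8 FPKM in CAR wt libraries, and PaS ko libraries had 65.0, 61.9 and 60.7 FPKM, against 55.0, 62.1 and 50.5 FPKM in PaS wt libraries. Exons outside the deleted part count toward FPKM, and the labels cannot be checked from these values. The stromal identity of the sorts was visible in Cxcl12 and in Ly6a, which encodes Sca1. Cxcl12 was at 13299 ± 1205 FPKM in CAR ko and 13251 ± 377 FPKM in CAR wt libraries (SD, n = 3, as for all errors beside FPKM below). It was higher in CAR wt than in PaS wt libraries (limma adjusted p under 0.05). Ly6a was at 1551 ± 34.6 FPKM in PaS ko and 1963 ± 218 FPKM in PaS wt libraries. In CAR cells Ly6a was at 8.82 ± 3.01 FPKM in ko and 4.66 ± 0.815 FPKM in wt libraries.

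The 3 C1q chains were near the bottom of the expressed range in CAR libraries and among the more abundant genes in PaS libraries, where they were 2.37 to 2.73 times as high in ko as in wt. C1qa had 101, 77.9 and 84.8 FPKM in PaS ko libraries, against 39.4, 32.6 and 36.8 FPKM in PaS wt libraries. C1qb had 171, 135 and 139 FPKM in PaS ko libraries, against 69.8, 51.6 and 66.7 FPKM in PaS wt libraries. C1qc had 155, 117 and 140 FPKM in PaS ko libraries, against 50.5, 38.4 and 61.6 FPKM in PaS wt libraries. For each chain, the lowest PaS ko library lay above the highest PaS wt library. On the log2(FPKM + 1) scale the differences were 1.25 (SE 0.17) for C1qa, 1.23 (SE 0.28) for C1qb and 1.45 (SE 0.21) for C1qc, and 1.31, 1.32 and 1.46 without PaS wt replicate 1. In bulk RNA, fewer cells of a type and less RNA per cell cannot be told apart, here or in any result below.

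In CAR cells the same chains averaged 0.898 to 2.33 FPKM over either genotype. C1qa averaged 1.25 ± 0.504 FPKM in CAR ko and 0.898 ± 0.330 FPKM in CAR wt libraries, and C1qb averaged 2.33 ± 0.771 FPKM in CAR ko and 1.37 ± 1.10 FPKM in CAR wt libraries. C1qc averaged 1.35 ± 0.451 FPKM in CAR ko and 1.73 ± 0.837 FPKM in CAR wt libraries. The genotypes overlapped for all 3 chains. Their log2 differences were 0.24 (SE 0.17) for C1qa, 0.60 (SE 0.28) for C1qb and -0.18 (SE 0.21) for C1qc, and the last ranged from -0.43 to 0.03 over the alternative settings. Between the wt sorts, C1qa was 40.4, C1qb 45.9 and C1qc 29.1 times lower in CAR wt than in PaS wt libraries.

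The chains kept similar proportions to each other in PaS cells. Summed C1q was 373 ± 48.9 FPKM in PaS ko and 149 ± 23.2 FPKM in PaS wt libraries. Of that sum, C1qb made up 39.8 ± 1.42% in PaS ko and 42.1 ± 1.65% in PaS wt libraries. C1qc made up 36.7 ± 1.58% in PaS ko and 33.4 ± 3.39% in PaS wt libraries, and C1qa 23.5 ± 0.170% in PaS ko and 24.5 ± 2.17% in PaS wt libraries. In mean level, C1qb was above 97.9% of all 24347 listed genes in PaS ko and above 94.7% in PaS wt libraries. Over the 6 PaS libraries, deviations of log2(FPKM + 1) from the group mean correlated at r = 0.94 between C1qa and C1qb, 0.83 between C1qb and C1qc and 0.74 between C1qa and C1qc. Over all 12 libraries, CAR included, the same correlations were -0.04, 0.16 and 0.43, in that order. These correlations are descriptive, since the points share a library and its scaling.

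**Figure D1:**
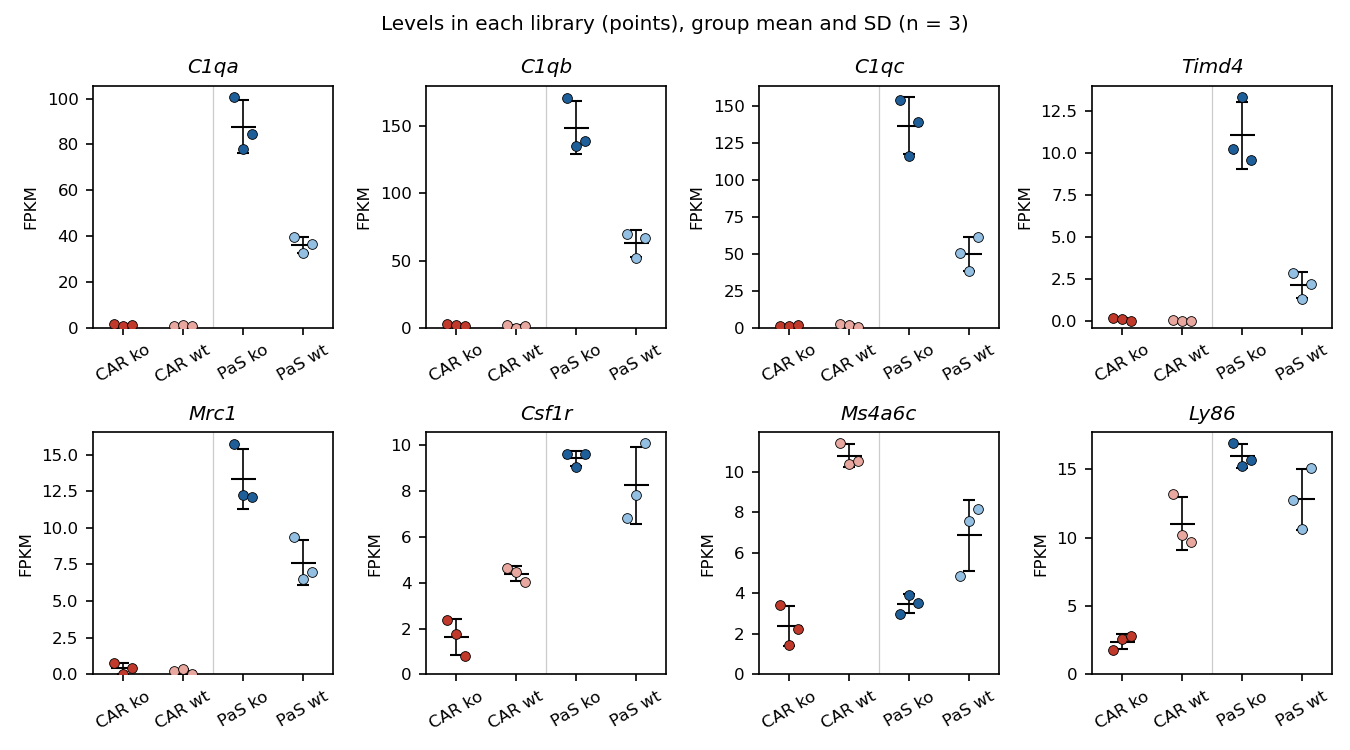
Levels of the 8 genes in FPKM (vertical axis, a separate scale for each gene) in each library of CAR ko, CAR wt, PaS ko and PaS wt, with points for libraries and bars for the group mean and SD. The C1q chains, Timd4 and Mrc1 are highest in PaS ko and near 0 in CAR cells, whereas Csf1r, Ms4a6c and Ly86 are lower in CAR ko than in CAR wt.

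Of the receptors that bind dying cells and glycoproteins, Timd4 and Mrc1 moved with the C1q chains in PaS cells. Timd4 encodes TIM-4, a receptor for phosphatidylserine on apoptotic cells that marks long-lived resident macrophages. It had 10.2, 13.3 and 9.60 FPKM in PaS ko libraries, against 2.86, 1.34 and 2.21 FPKM in PaS wt libraries, which do not overlap. The ratio of means was 5.17, the highest of the 8 genes, and the log2 difference was 1.96 (SE 0.20), or 2.12 without PaS wt replicate 1. Deviations of Timd4 within PaS groups correlated with those of C1qa at r = 0.22, of C1qb at 0.50 and of C1qc at 0.26 over 6 libraries. Over all 12 libraries these correlations were 0.22, 0.35 and 0.14. In CAR cells Timd4 was at 0.209, 0.108 and 0 FPKM in ko libraries, against 0.0839, 0 and 0 FPKM in wt libraries. No fold is given between CAR groups at such levels.

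Mrc1 encodes the mannose receptor CD206, an endocytic receptor of tissue macrophages and of sinusoidal endothelium. It had 15.7, 12.2 and 12.1 FPKM in PaS ko libraries, against 9.36, 6.52 and 6.98 FPKM in PaS wt libraries. The groups did not overlap, with a ratio of means of 1.75 and a log2 difference of 0.74 (SE 0.20), or 0.88 without PaS wt replicate 1. In CAR cells it averaged 0.399 ± 0.349 FPKM in ko and 0.218 ± 0.165 FPKM in wt libraries, which overlap. Its deviations within PaS groups correlated with those of C1qa at r = 0.87, of C1qb at 0.84 and of C1qc at 0.42 over 6 libraries. Over all 12 libraries these correlations were 0.93, 0.08 and 0.41. Markers of endothelium, which also uses Mrc1, summed over 11 genes to 73.4 to 80.2 FPKM in PaS ko and 80.3 to 94.7 FPKM in PaS wt libraries. Of 10 of them tested, 1 was called in PaS ko, Tek, which was lower.

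Csf1r encodes the receptor for CSF1 and IL-34, on which most macrophages depend. In CAR cells it had 2.36, 1.76 and 0.786 FPKM in ko libraries, against 4.65, 4.48 and 4.04 FPKM in wt libraries, so the mean was 2.68 times lower in ko. In PaS cells it had 9.60, 9.06 and 9.62 FPKM in ko libraries, against 6.80, 7.84 and 10.1 FPKM in wt libraries. The CAR groups did not overlap and the PaS groups did. Log2 differences were -1.08 (SE 0.20) in CAR cells and 0.19 (SE 0.20) in PaS cells, or 0.07 in PaS cells without PaS wt replicate 1. A ratio of 1.14 between the PaS means of Csf1r stands beside ratios of 2.37 to 2.73 for the C1q chains.

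Ms4a6c is a membrane-spanning 4-domain gene found in monocytes and macrophages of the mouse, and it was the member that was lower in ko in both sorts. It had 3.44, 1.46 and 2.23 FPKM in CAR ko libraries, against 11.4, 10.4 and 10.5 FPKM in CAR wt libraries. In PaS cells it had 2.99, 3.93 and 3.51 FPKM in ko libraries, against 4.88, 7.55 and 8.15 FPKM in wt libraries. Neither pair of groups overlapped. The log2 differences were -1.85 (SE 0.20) in CAR cells and -0.79 (SE 0.20) in PaS cells, or -0.99 in PaS cells without PaS wt replicate 1. Its mean was 4.55 times lower in CAR ko than in CAR wt libraries, and in PaS ko libraries it was 0.507 of the PaS wt mean.

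Ly86 encodes MD-1, which pairs with the Toll-like receptor homologue RP105 (Cd180) on B cells and myeloid cells. It had 1.79, 2.56 and 2.83 FPKM in CAR ko libraries, against 13.2, 10.2 and 9.65 FPKM in CAR wt libraries, a mean 4.61 times lower in ko. In PaS cells it had 16.9, 15.3 and 15.7 FPKM in ko libraries, against 12.7, 10.6 and 15.1 FPKM in wt libraries. Neither pair overlapped, although in PaS cells the nearest libraries of the 2 groups were 15.3 FPKM in ko and 15.1 FPKM in wt. The log2 differences were -1.83 (SE 0.16) in CAR cells and 0.31 (SE 0.16) in PaS cells, and 0.31 in PaS cells also without PaS wt replicate 1.

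Across the 4 groups the order of mean levels was PaS ko, PaS wt, then the CAR groups for the C1q chains, Timd4 and Mrc1, with the CAR genotypes overlapping in each of these 5. For Csf1r the order was PaS ko, PaS wt, CAR wt, CAR ko, and the PaS genotypes overlapped. For Ly86 it was PaS ko, PaS wt, CAR wt, CAR ko, and the wt sorts overlapped. For Ms4a6c it was CAR wt, PaS wt, PaS ko, CAR ko, with PaS ko and CAR ko overlapping.

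In CAR cells 3 of the 8 members were called at a limma adjusted p under 0.05, all lower in ko, beside 5.74% of the 12938 tested genes called lower. In PaS cells 5 were called higher and 1 lower, beside 3.41% and 4.03% of tested genes. Without overlap between genotypes were 3 members in CAR cells, all lower in ko, where 14.0% of tested genes were apart in that direction. In PaS cells 6 were apart and higher and 1 was apart and lower, beside 11.5% and 11.9% of tested genes. The effect in CAR cells minus the effect in PaS cells was called for 6 members, all lower, beside 3.26% of tested genes, and the exceptions were C1qb and Mrc1. Between the wt sorts 1 member, Ms4a6c, was called higher and 6 lower in CAR than in PaS libraries, beside 20.5% and 22.7% of tested genes. Timd4 and Mrc1 passed the filter on low values through PaS libraries alone, so the filter favoured a lower level in CAR libraries. They and the C1q chains were near the floor in CAR cells. The log2(FPKM + 1) scale leaves little room there for a CAR effect, so their difference of effects largely repeats the PaS effect. The members were chosen with these contrasts known, so nothing is read from these shares. The median log2 difference of the members was -0.04 in CAR and 0.99 in PaS cells, beside 0.01 and 0.00 over all tested genes.

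**Figure D2:**
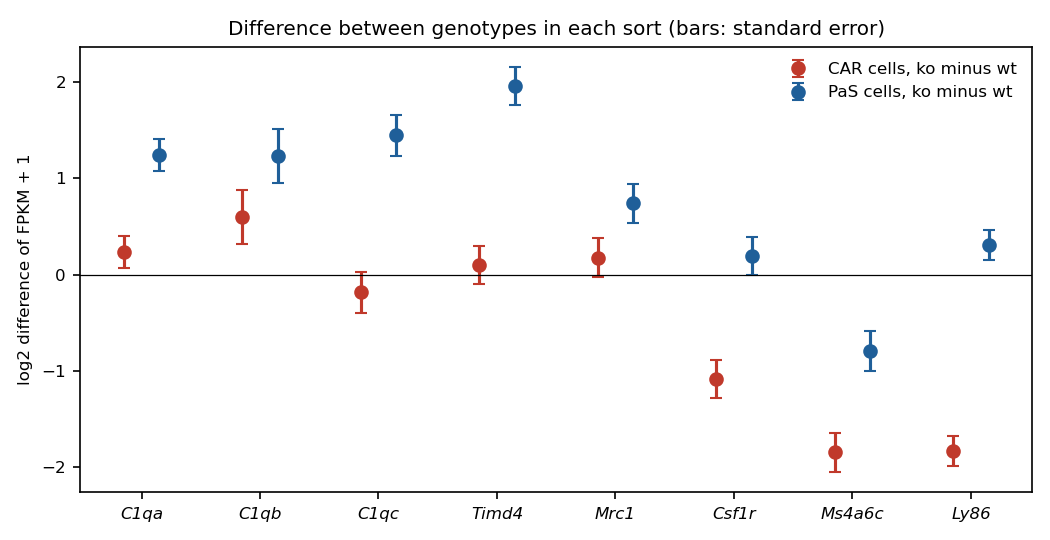
Difference between ko and wt on the log2(FPKM + 1) scale (vertical axis) for each of the 8 genes in CAR and PaS cells, with bars for the standard error of the limma fit. Timd4 is highest in PaS cells at 1.96, and Ms4a6c and Ly86 are lowest in CAR cells at -1.85 and -1.83.

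Relative to the C1q chains, the members separated in PaS cells. As a percentage of the summed C1q level, Timd4 was at 2.40, 4.04 and 2.64% in PaS ko libraries, against 1.79, 1.09 and 1.34% in PaS wt libraries. Mrc1 was at 3.69, 3.71 and 3.33% in PaS ko libraries, against 5.86, 5.32 and 4.22% in PaS wt libraries. Thus Timd4 exceeded the C1q chains in its ratio between genotypes and Mrc1 fell short of them, and in each case the genotypes did not overlap. Ly86 was at 4.30 ± 0.326% in PaS ko and 8.60 ± 0.585% in PaS wt libraries, and Csf1r at 2.55 ± 0.261% in PaS ko and 5.59 ± 1.16% in PaS wt libraries. Ms4a6c was at 0.954 ± 0.245% in PaS ko and 4.72 ± 1.56% in PaS wt libraries.

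**Figure D3:**
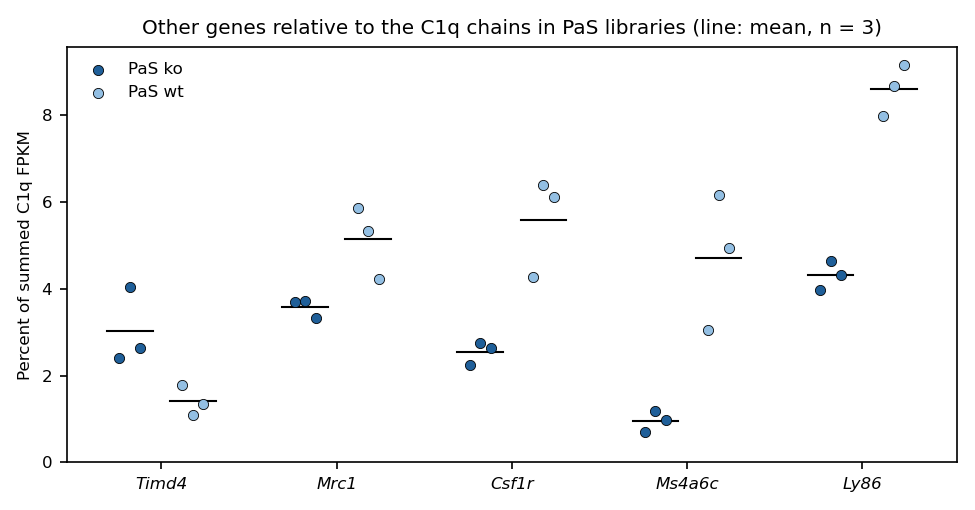
Level of Timd4, Mrc1, Csf1r, Ms4a6c and Ly86 as a percentage of the summed FPKM of C1qa, C1qb and C1qc (vertical axis) in each PaS ko and PaS wt library, with a line at each mean of 3. Timd4 is higher in PaS ko than in PaS wt and the other 4 genes are lower, without overlap.

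Other macrophage genes, from a list that leaves out the 8 members, were mostly higher in PaS ko libraries. Of 21 tested genes, 11 were called higher and 2 lower in PaS ko, with a median log2 difference of 0.75 beside 0.00 over all genes. In 5 of the 21 (Vsig4, Siglec1, Trem2, Lyve1 and Gpr34) the gene would not have passed the filter on low values without the PaS ko libraries, which favours a higher level there, and Lyve1 and Gpr34 are among the 11 called. The call on Lyve1 was lost in 8 alternatives and that on Gpr34 in 1. Cd68, a lysosomal macrophage protein, had 56.2 ± 10.8 FPKM in PaS ko and 32.6 ± 2.86 FPKM in PaS wt libraries (log2 difference 0.75, SE 0.17, limma adjusted p = 0.0092). Aif1, an actin-binding protein of macrophages, rose by 1.06 (SE 0.17, limma adjusted p = 0.00063). Adgre1, which encodes the surface marker F4/80, had 15.9 ± 3.95 FPKM in PaS ko and 7.24 ± 0.608 FPKM in PaS wt libraries, a log2 difference of 1.01 (SE 0.24, limma adjusted p = 0.013). The call on Adgre1 was lost in 4 alternatives, at adjusted p of 0.053 to 0.19, and that on Cd68 in 2, at 0.051 and 0.054.

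Among the 11 called higher in PaS ko were Hmox1 and Slc40a1, which act in iron handling. Hmox1, the heme oxygenase that releases iron from heme, had 179 ± 27.9 FPKM in PaS ko and 106 ± 8.99 FPKM in PaS wt libraries (log2 difference 0.75, SE 0.11, limma adjusted p = 0.00025). Slc40a1, the iron exporter ferroportin, had 76.5 ± 6.89 FPKM in PaS ko and 43.3 ± 1.89 FPKM in PaS wt libraries (log2 difference 0.80, SE 0.08, limma adjusted p = 4.9e-06). Both genes had high levels in CAR cells too, where they were not called. Hmox1 was at 79.7 ± 9.98 FPKM in CAR ko and 80.4 ± 3.03 FPKM in CAR wt libraries, and Slc40a1 at 65.7 ± 1.58 FPKM in CAR ko and 70.5 ± 5.03 FPKM in CAR wt libraries. Of genes picked after their values were seen, Spic, a transcription factor of iron-recycling macrophages, had 14.8 ± 4.68 FPKM in PaS ko and 6.47 ± 2.55 FPKM in PaS wt libraries (limma adjusted p = 0.030, lost in 5 alternatives at 0.054 to 0.42). Cd5l, a secreted macrophage protein, had 32.9 ± 1.49 FPKM in PaS ko and 16.1 ± 0.536 FPKM in PaS wt libraries (limma adjusted p = 0.0029, lost with a pseudocount of 0.1 FPKM, at 0.22). Itgad, the integrin chain CD11d, had 5.45 ± 0.483 FPKM in PaS ko and 2.90 ± 0.843 FPKM in PaS wt libraries (limma adjusted p = 0.015, lost in 4 alternatives, the highest at 0.23).

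Not every macrophage gene was called higher in PaS ko, although some of those not called had higher means there. Itgam, the integrin chain CD11b shared with monocytes and neutrophils, had 3.48 ± 1.04 FPKM in PaS ko and 12.8 ± 2.38 FPKM in PaS wt libraries, a log2 difference of -1.64 (SE 0.22, limma adjusted p = 0.00016). Axl, a receptor kinase that stromal cells also express, fell by 0.62 on the log2 scale (SE 0.08, limma adjusted p = 0.00014), with 148 ± 13.3 FPKM in PaS ko and 227 ± 4.44 FPKM in PaS wt libraries. Mertk, a related kinase of dead-cell uptake, had a log2 difference of 0.15 (SE 0.14, limma adjusted p = 0.63). Siglec1, the sialoadhesin of marrow macrophages, had 1.84 ± 0.307 FPKM in PaS ko and 0.951 ± 0.205 FPKM in PaS wt libraries (limma adjusted p = 0.071). Vsig4, a complement receptor of resident macrophages, had 1.83 ± 0.248 FPKM in PaS ko and 0.892 ± 1.00 FPKM in PaS wt libraries (log2 difference 0.70, limma adjusted p = 0.19). Without PaS wt replicate 1 its log2 difference was 1.10, and no call is read from that, since Vsig4 passed the filter through PaS ko libraries.

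In CAR cells, 5 of the 21 macrophage genes were called, all lower in ko, with a median log2 difference of -0.10 beside 0.01 over all genes. They were Aif1, Itgam, Maf, Axl and Cd68. Of the 21, 10 passed the filter on low values through PaS libraries alone, and none of those was called in CAR cells. A fall in CAR ko could hardly show in them, which limits both the count and the median. Aif1 had 1.08 ± 0.430 FPKM in CAR ko and 2.56 ± 0.201 FPKM in CAR wt libraries (log2 difference -0.80, SE 0.17, limma adjusted p = 0.0048). Maf, a transcription factor of macrophages and stroma, fell by 0.55 on the log2 scale (SE 0.13, limma adjusted p = 0.0097). The call on Cd68 (log2 difference -0.54, limma adjusted p = 0.047) was lost in 9 alternatives, at 0.069 to 0.19, and that on Axl in 4. The summed level of the 24 listed genes was 242 to 267 FPKM in CAR ko and 278 to 288 FPKM in CAR wt libraries, and 629 to 727 FPKM in PaS ko and 558 to 566 FPKM in PaS wt libraries. Marco was at 0 in all CAR libraries, and Vsig4 and Itgad were at 0 in all CAR ko libraries.

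**Figure D4:**
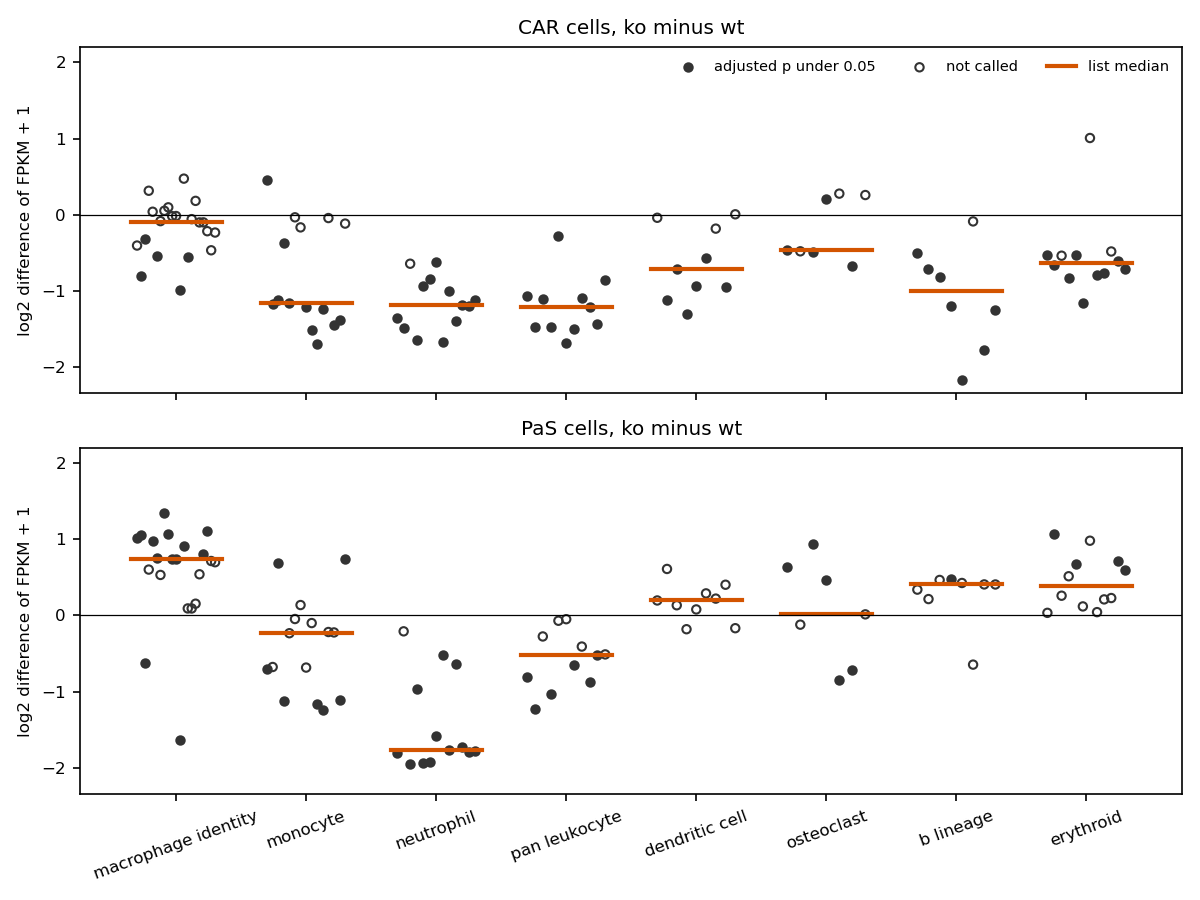
Log2 difference of FPKM + 1 between ko and wt (vertical axis) for the tested genes of 8 marker lists in CAR cells (upper panel) and PaS cells (lower panel), with filled points for genes at a limma adjusted p under 0.05, open points for the others and a line at each list's median. The macrophage list has a median of 0.75 in PaS cells, whereas the neutrophil list has a median of -1.76 there.

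Markers of other blood cells moved between genotypes as well, although the gates left out CD45+ and lineage-positive cells. Ptprc, which encodes CD45, had 2.50 ± 0.600 FPKM in CAR ko and 6.46 ± 1.36 FPKM in CAR wt libraries (log2 difference -1.09, SE 0.17, limma adjusted p = 0.00056). In PaS cells it had 8.54 ± 0.199 FPKM in ko and 11.8 ± 2.66 FPKM in wt libraries (log2 difference -0.41, limma adjusted p = 0.20). All 11 genes of the pan-leukocyte list were called lower in CAR ko, with a summed level of 359 to 396 FPKM in CAR ko and 771 to 828 FPKM in CAR wt libraries. In PaS cells 6 of the 11 were called, all lower, with 669 to 763 FPKM in ko and 981 to 1116 FPKM in wt libraries. No gene of that list was at 0 in any group. Its part in the lower Csf1r, Ms4a6c and Ly86 of CAR ko libraries, and in the PaS differences, was not tested.

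Neutrophil genes were lower in ko in both sorts, with 12 of 13 called lower in each and medians of -1.19 in CAR and -1.76 in PaS cells. Their summed level was 4716 to 5333 FPKM in CAR ko and 10447 to 12044 FPKM in CAR wt libraries, and 7010 to 7185 FPKM in PaS ko and 22563 to 25286 FPKM in PaS wt libraries. S100a8, a calcium-binding protein of neutrophils, fell by 1.80 on the log2 scale in PaS ko (SE 0.08, limma adjusted p = 2.0e-09). Of 15 monocyte genes, 10 were called lower and 1 higher in CAR ko, and 5 lower and 2 higher in PaS ko. Ly6c2, a surface marker of inflammatory monocytes, had 59.4 ± 7.55 FPKM in PaS ko and 134 ± 11.7 FPKM in PaS wt libraries (log2 difference -1.16, SE 0.11, limma adjusted p = 3.4e-06). Lyz2, the lysozyme of myeloid cells, had 432 ± 11.5 FPKM in PaS ko and 1019 ± 19.6 FPKM in PaS wt libraries (limma adjusted p = 3.7e-08). The monocyte genes called higher in PaS ko were Ctss, the protease cathepsin S, by 0.69 (limma adjusted p = 0.0089), and Treml4, by 0.75 (limma adjusted p = 0.046, lost in 9 alternatives), and the list's median was -0.23. The part of either list in the higher C1q chains and Timd4 of PaS ko libraries was not tested.

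Erythroid genes, whose cells macrophages surround in the marrow, were called lower in CAR ko for 9 of 12 and higher in PaS ko for 4 of 12. The B-lineage list had 7 of 8 called lower in CAR ko and 1 of 8, Cd79b, higher in PaS ko, a call lost in 8 alternatives at limma adjusted p of 0.052 to 0.20. Dendritic cell genes, from another source of C1q, had 6 of 9 called lower in CAR ko. In PaS cells limma called 0 of the 9, and 3 had an unadjusted p under 0.05. Osteoclast genes, of a cell that also needs Csf1r, had 1 of 7 higher and 3 lower in CAR ko, and 3 higher and 2 lower in PaS ko. Of 3 tested T and NK cell genes, Nkg7 was called lower in each sort, in PaS cells with a call lost in 6 alternatives at limma adjusted p of 0.061 to 0.14.

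The rest of the complement system did not move in a common direction with C1q. Of 27 tested complement genes other than the C1q chains, 3 were called higher and 3 lower in CAR ko, and 7 higher and 6 lower in PaS ko, with medians of -0.03 and -0.10. Over all 12938 tested genes, 1585 were called in CAR cells in either direction, 5.74% of the tested genes being lower in ko. In PaS ko 3.41% were called higher and 4.03% lower. These shares stand beside the counts of every list here. For counts higher in CAR ko no separate share is given, only the 1585 calls in either direction. The proteases that C1q activates are encoded by C1ra and C1s1. C1ra had 113 ± 3.28 FPKM in PaS ko and 131 ± 4.60 FPKM in PaS wt libraries (log2 difference -0.22, SE 0.07, limma adjusted p = 0.063), and C1s1 had 222 ± 7.71 FPKM in PaS ko and 272 ± 6.21 FPKM in PaS wt libraries (log2 difference -0.29, SE 0.06, limma adjusted p = 0.0038). These proteases, unlike C1q, had levels above 100 FPKM in CAR cells too, with C1ra at 127 ± 6.65 FPKM in CAR ko and 141 ± 11.1 FPKM in CAR wt libraries. Serping1, the inhibitor of C1r and C1s, was the most abundant complement gene described here, at 2613 ± 71.5 FPKM in PaS ko and 2809 ± 121 FPKM in PaS wt libraries (log2 difference -0.10, limma adjusted p = 0.32).

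Downstream, C3, the central component cleaved by all pathways, fell by 0.65 on the log2 scale in PaS ko (SE 0.06, limma adjusted p = 4.1e-06), with 233 ± 6.26 FPKM in ko and 366 ± 4.80 FPKM in wt libraries. C4b, the component that C1s cleaves, had 108 ± 3.50 FPKM in PaS ko and 126 ± 2.82 FPKM in PaS wt libraries (limma adjusted p = 0.055). In the alternative pathway, Cfd, the protease adipsin, had 32.8 ± 2.31 FPKM in PaS ko and 2.64 ± 0.351 FPKM in PaS wt libraries, a log2 difference of 3.22 (SE 0.20, limma adjusted p = 5.6e-08). Cfp, the stabiliser properdin, which leukocytes make, went opposite ways in the sorts. It had 2.61 ± 0.0948 FPKM in CAR ko and 8.15 ± 1.97 FPKM in CAR wt libraries (log2 difference -1.32, SE 0.14, limma adjusted p = 1.1e-05). In PaS cells it had 36.7 ± 1.96 FPKM in ko and 24.2 ± 2.02 FPKM in wt libraries (log2 difference 0.58, SE 0.14, limma adjusted p = 0.013), a call lost without PaS ko replicate 1 or PaS wt replicate 2, at 0.064 and 0.063. The difference between these effects was -1.90 (SE 0.19, limma adjusted p = 2.4e-05).

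Among regulators that protect host cells, Clu and Cd59a were called higher in ko in both sorts, whereas Cd55 was called lower in PaS ko, a call lost in 7 alternatives at limma adjusted p of 0.050 to 0.10. Clu, the fluid-phase inhibitor clusterin, rose by 0.34 in CAR and 0.89 in PaS cells (limma adjusted p = 0.00075 and 5.7e-08). Cd59a, which blocks the membrane attack complex, rose by 0.73 in CAR and 0.99 in PaS cells (limma adjusted p = 0.00077 and 6.1e-05). Among genes with the C1q-type domain other than C1q, 2 of 13 were called higher and 4 lower in CAR ko, and 2 higher and 3 lower in PaS ko. Cbln1 fell in each sort, by 1.00 in CAR and 0.78 in PaS cells (limma adjusted p = 0.00011 and 0.0011), C1qtnf1 fell by 0.71 in PaS cells (limma adjusted p = 9.0e-05) and C1qtnf5 rose by 0.61 there (limma adjusted p = 0.0024).

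Around Csf1r, a list held its ligands and related receptors and regulators, and every call among its 21 tested genes was lower in ko. Which cells expressed these genes was not tested. In CAR ko 11 were called and in PaS ko 8, with medians of -0.48 and -0.33. Csf1, the growth factor, had 103 ± 6.55 FPKM in PaS ko and 132 ± 5.43 FPKM in PaS wt libraries (log2 difference -0.36, SE 0.07, limma adjusted p = 0.0024). In CAR cells it had 223 ± 5.17 FPKM in ko and 258 ± 18.9 FPKM in wt libraries (limma adjusted p = 0.060). Il34, the other ligand, had 156 ± 5.22 FPKM in CAR ko and 188 ± 6.43 FPKM in CAR wt libraries (log2 difference -0.27, limma adjusted p = 0.037, lost in 8 alternatives at 0.056 to 0.12), and 58.6 ± 5.65 FPKM in PaS ko and 53.8 ± 5.21 FPKM in PaS wt libraries (limma adjusted p = 0.46).

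Spi1 encodes PU.1, a factor that activates Csf1r, and it was lower in ko in both sorts. It had 6.38 ± 1.11 FPKM in CAR ko and 16.6 ± 2.73 FPKM in CAR wt libraries (log2 difference -1.25, SE 0.14, limma adjusted p = 2.1e-05). In PaS cells it had 12.8 ± 0.782 FPKM in ko and 20.1 ± 2.38 FPKM in wt libraries (log2 difference -0.61, SE 0.14, limma adjusted p = 0.011), a call lost without PaS wt replicate 2. Irf8, a factor of monocytes and dendritic cells, fell by 0.73 in CAR ko (limma adjusted p = 0.0011) and had a log2 difference of 0.21 in PaS cells (limma adjusted p = 0.41). Flt3, a growth factor receptor of progenitors and dendritic cells, fell by 1.30 in CAR ko (limma adjusted p = 0.00023). The receptor chains Csf2ra and Csf3r fell by 0.82 and 1.24 in PaS ko (limma adjusted p = 0.0017 and 0.00013).

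Next to Timd4, other genes of phosphatidylserine recognition were called higher for 1 and lower for 4 of 18 in each sort. Gas6, which bridges phosphatidylserine to Axl and Mertk, had 677 ± 28.6 FPKM in PaS ko and 549 ± 3.26 FPKM in PaS wt libraries (log2 difference 0.30, SE 0.06, limma adjusted p = 0.0033). Itgb5, an integrin chain, rose by 0.49 in CAR ko (limma adjusted p = 2.9e-05). Cd300a fell by 0.84 in CAR ko (limma adjusted p = 0.0038), and Cd300lf fell by 1.11 in PaS ko (limma adjusted p = 0.0018). Both are lipid-binding receptors of myeloid cells. Of 15 lectins and relatives of Mrc1, 2 were called higher and 8 lower in CAR ko, and 2 higher and 3 lower in PaS ko. Of the 2 higher, Clec4a1 passed the filter only with the help of PaS ko libraries, which favours a higher level there, and its call was lost in 5 alternatives. Clec4e, the receptor Mincle, fell by 0.96 in CAR and 1.44 in PaS cells (limma adjusted p = 0.00013 and 2.5e-06). Clec12a and Clec4a3 fell by 1.27 and 1.18 in CAR ko (limma adjusted p = 3.0e-05 and 0.0014). Cd209f, a relative of the lectin DC-SIGN, rose by 1.03 in PaS ko (limma adjusted p = 0.010), a call lost with a pseudocount of 0.1 FPKM, at 0.26.

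In the family of Ms4a6c, 3 of 7 tested genes were called in CAR ko and 1 in PaS ko, all lower. Ms4a6b, its neighbour in the family, had 0.289 ± 0.139 FPKM in CAR ko and 2.48 ± 0.837 FPKM in CAR wt libraries (log2 difference -1.41, SE 0.22, limma adjusted p = 0.00052), and in PaS cells 1.38 ± 0.672 FPKM in ko and 1.31 ± 0.107 FPKM in wt libraries (limma adjusted p = 0.99). Ms4a3, a gene of granulocyte and monocyte progenitors, fell by 1.66 in CAR ko (limma adjusted p = 8.4e-05) and by 0.86 in PaS ko (limma adjusted p = 0.019, lost in 6 alternatives), and Ms4a4c fell by 1.10 in CAR ko (limma adjusted p = 0.0036). Ms4a4c passed the filter only with the help of CAR wt libraries, so its call, 1 of the 3, was favoured by the filter. Ms4a7, which marks tissue macrophages, had 8.70 ± 4.23 FPKM in PaS ko and 4.23 ± 1.12 FPKM in PaS wt libraries (log2 difference 0.83, limma adjusted p = 0.051). Ms4a6d had 3.50 ± 0.562 FPKM in PaS ko and 2.05 ± 1.02 FPKM in PaS wt libraries (log2 difference 0.61, limma adjusted p = 0.23, and 0.30 without PaS wt replicate 1). Family members are similar in sequence, so the counting could have split shared reads among Ms4a6b, Ms4a6c and Ms4a6d, and their separate levels are uncertain.

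Ly86 had little of its partner beside it. Cd180, which encodes RP105, had 0.539 ± 0.212 FPKM in PaS ko and 0.203 ± 0.126 FPKM in PaS wt libraries, and 0.0197 ± 0.0201 FPKM in CAR ko and 0.141 ± 0.199 FPKM in CAR wt libraries, and did not pass the filter on low values. Tlr4, the receptor that RP105 resembles, had 15.5 ± 2.69 FPKM in PaS ko and 16.8 ± 1.01 FPKM in PaS wt libraries (limma adjusted p = 0.70), and in CAR cells a log2 difference of 0.15 (limma adjusted p = 0.56). Of 14 tested Toll-like receptor genes and partners, 2 were called in CAR ko, both lower, and 1 higher and 2 lower in PaS ko. The one higher, Tlr7, passed the filter through PaS ko libraries alone, so it had to be higher there, and its call was lost in 4 alternatives. Cd14, the lipopolysaccharide co-receptor, fell by 0.72 in CAR and 1.10 in PaS cells (limma adjusted p = 0.00014 and 2.4e-06), and Irak3, an inhibitor of the pathway, fell by 0.64 in PaS cells (limma adjusted p = 0.0040).

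Among 8526 tested genes with a mean of at least 5 FPKM, those whose log2(FPKM + 1) followed the C1q chains most closely over the 12 libraries were Matn2, Eln, Gclc, Prrx2 and Angptl7, with Pearson r of 0.994 to 0.997. Angptl7, a secreted glycoprotein, averaged 454.9 FPKM in PaS ko and 229.7 FPKM in PaS wt libraries, against 42.9 FPKM in CAR ko and 38.9 FPKM in CAR wt libraries. Elastin (Eln) averaged 45.6 FPKM in PaS ko and 29.7 FPKM in PaS wt libraries, and stayed at 3.35 FPKM in CAR ko and 2.98 FPKM in CAR wt libraries. Nearest to Timd4 were Prss23, Dkk3 and Fam180a (r of 0.970 to 0.974), and nearest to Mrc1 were Matn2, Fabp4 and Gclc (0.991 to 0.993). Csf1r was nearest to Man1c1, Cd74 and Lst1 (0.951 to 0.955), Ms4a6c to Dbp, Hmha1 and Cd37 (0.907 to 0.920), and Ly86 to Igll1, Fcgr3 and Laptm5 (0.967 to 0.978). The 12 points fall into 4 groups and share their scaling, so these values describe likeness of pattern between groups only.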

How the data were processed

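RNA of sorted CAR and PaS cells was enriched with oligo dT beads, and SMART-Seq v4 was used to make the libraries, per the labels' protocols. The tools named for these reads are TopHat2 2.0.14 with bcl2fastq 2.17.1.14 and the Cufflinks programs (Cuffnorm 2.2.1, Cufflinks 2.2.1 and Cuffdiff), with build mm10, per the submitters' processing notes. Each library has 1 table from the authors, which gives FPKM values by gene symbol, per the file headers. The gene annotation and the use of strand in counting are not given in the sources used here, so overlapping and antisense genes cannot be told apart. A further 8 ATAC-seq samples were not analysed here.

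Values were tested as log2(FPKM + 1), a scale that understates changes of low genes, for the 12938 genes that reached 1 FPKM in 3 or more of the 12 libraries. The fit was limma 3.58.1 (R 4.3.3) on 4 group means, with a trend (8 residual and 6.95 prior degrees of freedom), two-sided, with Benjamini-Hochberg adjustment over all tested genes and calls under 0.05. Contrasts were ko minus wt in CAR and in PaS cells, the CAR effect minus the PaS effect, and wt CAR minus wt PaS. Errors beside log2 differences are standard errors of this fit. Whether replicates were separate animals or pools is not in the labels, and p-values therefore reflect the spread between these samples alone, which may be technical. Values of low genes gave a relative worth of a single read of 0.879 to 1.11 across libraries, but the members' values were not whole multiples of it, so reads were not recovered.

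The members, lists, tests and alternatives were chosen with earlier results of these data known. There were 18 lists, and the named genes were up to 4 of each list with the smallest p among those called in either genotype contrast, plus Adgre1, Cd68, Vsig4, Siglec1, Mertk, Spi1, Csf1, Il34, Cd180, Tlr4, C1ra, C1s1, C3, C4b, Serping1, Ms4a6b, Ms4a6d, Ms4a7, Ptprc and Ebf1, and some of these are not described. Spic, Cd5l, Itgad, Cxcl12, Cd55, Ctss, Treml4, Clec4a1 and the genes named only in counts were singled out after their values were seen. Genes like a member in pattern were the 5 highest Pearson r for the mean of the C1q chains and the 3 highest for each other member. On simulated data of 12938 genes, the fit recovered 92% of 100 genes changed by 1 on the log2 scale in CAR cells and 88% in PaS cells. Promoter windows are RefSeq sequences of GRCm38.p6, and Csf1r and C1qa were not among the 6 searched. C1qa had no window in the RefSeq set. The search of members left out chromosome 18, where Csf1r lies, so motifs in Csf1r were not looked for. Tables and figures were made with pandas 2.3.3 and matplotlib 3.10.9 in Python 3.11.15.

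Same-numbered ko and wt libraries deviated together only weakly, with correlations of -0.03 to 0.11, so the replicate numbers were not treated as pairs. Alternatives were a pseudocount of 0.1 or 5 FPKM, a filter of 5 FPKM or none, quantile normalization, median-ratio scaling, weights per library, a fit of the compared groups alone, the replicate number as a block, and each library left out in turn.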

Additional observations from a re-analysis of the deposited data

Results flagged for a closer look

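The genotype effect differed between the sorts for 36 genes named here other than the members, by the limma test of the CAR effect minus the PaS effect at an adjusted p under 0.05. Values are log2 differences, with a negative one where the effect was lower in CAR than in PaS cells. The 8 members were chosen with this contrast known and are left out. Most of the 36 genes were named for a small p in a genotype contrast that is itself part of this difference. Some others were named after their values were seen. Calls among them were therefore favoured in advance, and their number is no separate evidence. Over all 12938 tested genes, 851 were called for this difference.

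Macrophage genes had differences of -1.41 for Adgre1, -1.86 for Aif1, -1.29 for Cd68, -0.94 for Cd5l, -0.76 for Hmox1, -0.90 for Slc40a1, -0.64 for Maf and -1.18 for Trem2. Among complement genes and relatives of C1q they were -3.45 for Cfd, -1.90 for Cfp, -0.55 for Clu, 0.57 for C3 and 0.81 for C1qtnf1. Receptors and growth factor genes had -0.83 for Clec12a, -1.76 for Clec4a3, -1.12 for Flt3, -0.48 for Gas6, 0.46 for Itgb5 and -1.42 for Ms4a6b. The transcription factor Irf8 had -0.93. The blood cell markers Ly6c2 and S100a8 had -0.53 and 0.60, Ctss had -1.81, Cd79b -1.67 and Nkg7 -1.31. The endothelial Tek had 1.45, and Ly6a, which the sorts were gated on, had 1.10. Of these genes, Adgre1, Cd5l, Cfd and Tek passed the filter on low values through PaS libraries alone. Trem2 would not have passed without the PaS ko libraries. The levels of these 5 in CAR cells were near the floor, where the log2(FPKM + 1) scale leaves little room for a CAR effect.

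The rest were picked for a pattern over the same libraries like that of a member, so their differences are no separate evidence either. They were -0.84 for Angptl7, -0.44 for Prss23, -0.44 for Dkk3, -0.63 for Fam180a, -0.84 for Cd74, -1.41 for Lst1, -2.59 for Igll1, -1.38 for Fcgr3 and -1.63 for Laptm5.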

How the results depend on the processing

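Counts over all genes stayed within 1.5 times of those reported under every alternative tried. Leaving out 1 library at a time gave 1128 to 1262 calls in CAR cells (1585 with all libraries), 735 to 826 in PaS cells (962), 644 to 760 for the difference of effects (851) and 5011 to 5124 between the wt sorts (5590). Of the macrophage genes, 11 called higher in PaS ko became 5 with a pseudocount of 0.1 FPKM, 7 with a filter of 5 FPKM, under which fewer genes are tested, and 6 to 12 without 1 library (6 without PaS ko replicate 1 or without PaS ko replicate 2, and 12 without PaS wt replicate 1). The 5 called lower in CAR ko became 3 when only the CAR groups were fitted and 3 to 5 without 1 library, with 3 without CAR ko replicate 1, CAR wt replicate 1 or CAR wt replicate 2; the cause was not tested. Of 133 calls on genes named by rule, 108 held under every alternative and 0 reversed. The members' differences kept their sign under every alternative apart from that of C1qc in CAR cells. In PaS cells the difference of Timd4 ranged from 1.17 with a pseudocount of 5 FPKM to 2.36 with one of 0.1 FPKM, and in CAR cells that of Csf1r from -1.49 to -0.51, that of Ms4a6c from -2.22 to -1.11 and that of Ly86 from -2.17 to -1.11. With the replicate number as a block, limma called 1585 genes in CAR cells, 961 in PaS cells, 839 for the difference of effects and 5568 between the wt sorts, and 12 macrophage genes higher in PaS ko and 4 lower in CAR ko. Depth is unknown, which limits most the values under 1 FPKM, among them Timd4, Mrc1 and Cd180 in CAR cells.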
